A study of Mus musculus with 9 samples.

Results

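The genes described here form glycolysis and its branches to lactate, mitochondrial pyruvate and glycogen in HC11 cells, a mouse mammary epithelial cell line. They were taken from the count table by gene name, as 33 members of 54532 genes in the table, by a rule that uses no measured value. The 33 names matched 34 table entries, because Aldoa has a second entry. Of these, 30 entries of 29 members passed the filter on low counts that edgeR applies by default, and Slc2a3, Ldhb, Pdk3 and Pygl did not.

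The study exposed cultured HC11 cells to red light of 660 nm and measured their RNA by sequencing, with the effect of the light on the transcriptome as its question. Ctrl was untreated, EpPT1 was labelled with a treatment of 10 J/cm2 and EpPT2 with 20 J/cm2, with 3 libraries in each of the 3 groups. The protocol text instead names a laser of 10 mW at 0.5 and 1 J/cm2, so the fluence behind each group name is uncertain, and how long after the light the cells were lysed is not stated. All groups were the same line, from ATCC, carrying the strain label C57BL/6 and grown in DMEM with 10% fetal bovine serum, so they represent 1 line in culture. No label ties the libraries to separate cultures, and the p-values below therefore measure only the spread between libraries, which may be technical.

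Glycolysis splits glucose into pyruvate and yields ATP and NADH. Pyruvate is then reduced to lactate by lactate dehydrogenase or enters the mitochondria, where pyruvate dehydrogenase turns it into acetyl-CoA and pyruvate dehydrogenase kinases hold that enzyme back. Glucose 6-phosphate can also be stored as glycogen through phosphoglucomutase and glycogen synthase. In the lactating mammary gland, epithelial glucose uptake also feeds the synthesis of lactose, and several glycolytic genes are classical targets of hypoxia-inducible factors, which bind a short core motif.

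The libraries held 14549787 to 17228929 counts. Mitochondrially encoded genes took 2.74% to 3.62% of the counts in 5 libraries and 6.06% to 7.48% in the other 4, which were Ctrl 3, EpPT1 3, EpPT2 2 and EpPT2 3. The slope of log2 level on gene GC content, relative to the mean over the libraries, was negative in the 3 Ctrl libraries and EpPT1 1 (-0.52 to -0.24 per 10 percentage points) and positive in the other 5 (0.20 to 0.39), so it moved with the comparison of EpPT2 and Ctrl. Luminal keratins were high (Krt8 at 559 to 836 CPM, the count scaled to library size), while the epithelial cadherin gene Cdh1 stayed at 0.777 CPM or below. Of the markers of other cell types, Dcn of fibroblasts (733 to 3288 CPM), Lpl of fat cells (231 to 409 CPM) and Cd68 of macrophages (8.5 to 102 CPM) were present, while Lum, Adipoq and Ptprc were below 1 CPM in every library and Adgre1 was at 0. Dcn, Lpl and Cd68 carried most counts of their lists. The 5 fibroblast markers summed to 742 to 3295 CPM and the 6 fat cell markers to 231 to 409 CPM. The 7 blood and immune cell markers summed to 9.31 to 104 CPM. In such bulk RNA, fewer cells of a type and less RNA per cell cannot be told apart.

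The promoters of 4 members are shown because these genes stand for glucose uptake, the lower phase of glycolysis and lactate formation, and because their levels were lowest in the same 3 libraries, as described further on. Each sequence is the 250 bases upstream of the RefSeq start on build GRCm38.p6, written 5′ to 3′ on the gene's strand. Capitals mark the core motif of hypoxia-inducible factors, searched as ACGTG or GCGTG on both strands (CACGT and CACGC when read on the opposite strand).
Slc2a1, chr4:119108495-119108744, plus strand: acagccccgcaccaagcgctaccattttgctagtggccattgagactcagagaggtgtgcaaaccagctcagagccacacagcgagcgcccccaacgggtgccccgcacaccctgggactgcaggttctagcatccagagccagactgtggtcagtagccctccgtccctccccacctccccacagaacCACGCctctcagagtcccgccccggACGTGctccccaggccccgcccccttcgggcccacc
Gapdh, chr6:125165774-125166023, minus strand: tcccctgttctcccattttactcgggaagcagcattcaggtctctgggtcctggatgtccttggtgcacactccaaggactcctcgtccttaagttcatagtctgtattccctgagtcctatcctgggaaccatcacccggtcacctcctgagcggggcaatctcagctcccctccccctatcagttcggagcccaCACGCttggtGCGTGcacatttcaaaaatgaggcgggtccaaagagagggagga
Pgk1, chrX:106186850-106187099, plus strand: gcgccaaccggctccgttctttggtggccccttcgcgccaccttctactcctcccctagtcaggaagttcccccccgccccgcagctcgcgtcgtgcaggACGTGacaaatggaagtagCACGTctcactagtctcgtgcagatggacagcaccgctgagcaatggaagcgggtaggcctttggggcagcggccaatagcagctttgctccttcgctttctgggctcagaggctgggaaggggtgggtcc
Ldha, chr7:46845554-46845803, plus strand: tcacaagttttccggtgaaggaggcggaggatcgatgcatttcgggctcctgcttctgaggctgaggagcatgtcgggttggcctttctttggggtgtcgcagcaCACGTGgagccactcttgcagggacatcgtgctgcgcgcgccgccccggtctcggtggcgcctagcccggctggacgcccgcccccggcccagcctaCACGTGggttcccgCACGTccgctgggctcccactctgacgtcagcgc
The Slc2a1, Gapdh and Pgk1 windows each held 2 matches, and the Ldha window held 5, of which 4 lie in a pair of palindromes CACGTG that match on both strands. Over all members, RefSeq gave 45 promoters for 32 of the 33 genes. ACGTG or GCGTG occurred in 34 of these 45 windows (75.6%), against 38.6% of 32851 mouse promoter windows of the same length. ACGTG alone was in 18 of 45 (40%, against 16.6%), CACGTG in 4 of 45 (8.89%, against 6.02%) and the GC box GGGCGG in 22 of 45 (48.9%, against 32.7%). The member windows had a median GC content of 60.4%, against 52.4% for all windows, and every motif searched contains CG. The RefSeq starts of Gapdh and Ldha lie 694 and 4329 bases inside the gene as the table bounds it. A match of letters is a description of the window and not evidence of binding.

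The 33 members spanned the full range from undetected to among the abundant mRNAs of these cells. To compare genes, levels were divided by the authors' gene length, which need not be that of the expressed transcript. The highest mean level was that of Aldoa, the fructose-bisphosphate aldolase, at 909 CPM per kb. Pgk1 (phosphoglycerate kinase) followed at 578 CPM per kb and Ldha (lactate dehydrogenase A) at 553 CPM per kb. Triose-phosphate isomerase Tpi1 stood at 390, pyruvate kinase Pkm at 327, phosphoglycerate mutase Pgam1 at 295 and enolase Eno1 at 229 CPM per kb. The enzymes of the first, regulated steps were lower, with hexokinases Hk1 and Hk2 at 24.6 and 23.7 CPM per kb and the phosphofructokinases Pfkl, Pfkp and Pfkm at 31.7, 11.1 and 9.5 CPM per kb. The glucose transporter Slc2a1 stood at 87.4 and the lactate carrier Slc16a1 at 52.7 CPM per kb. Apart from Pygl, genes of glycogen metabolism lay between 1.83 CPM per kb for the branching enzyme Gbe1 and 35.6 CPM per kb for the table's Pgm2.

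**Figure D1:**
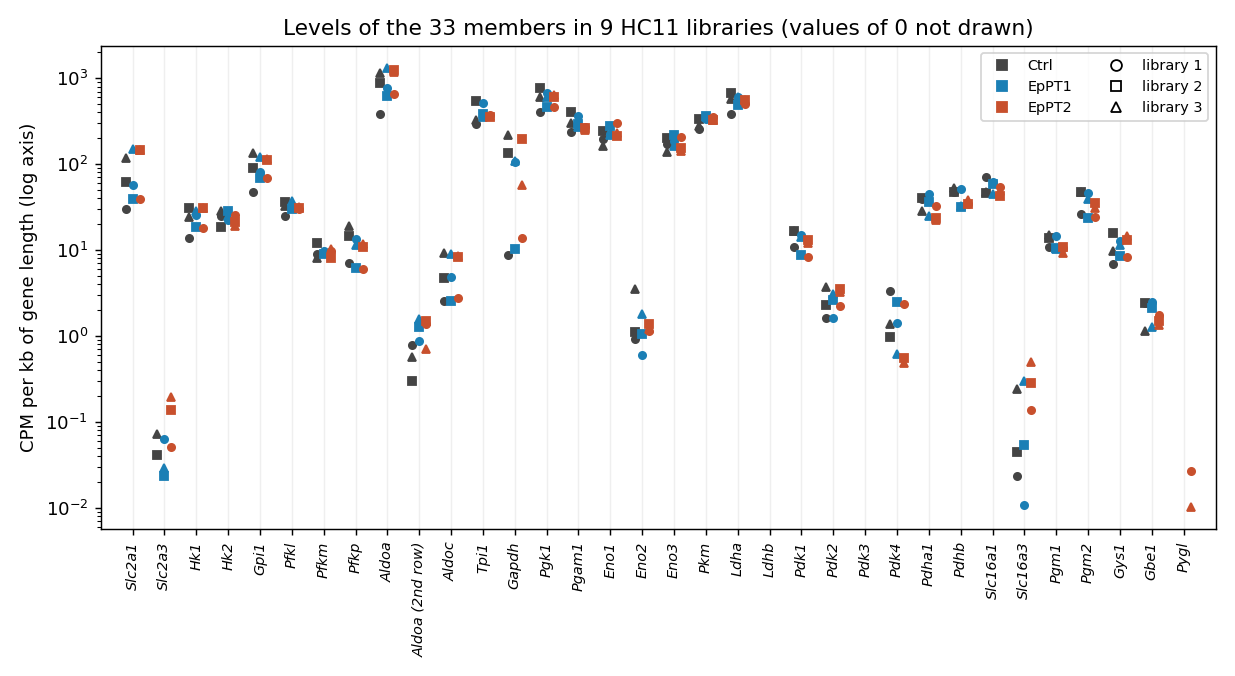
Level of each member in the 9 libraries, as CPM per kb of gene length on a log axis, in pathway order; colour gives the group and the shape gives the library number. Aldoa, Pgk1 and Ldha lie highest, values of 0 are not drawn (Ldhb and Pdk3 throughout), and the 3 groups overlap in nearly every column.

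No member passed the test in any comparison. In edgeR's quasi-likelihood test with Benjamini-Hochberg adjustment over all 14471 genes tested, 0 of 30 member entries had an adjusted p under 0.05 in EpPT1 against Ctrl, where 0% of all genes did. The same held for EpPT2 against Ctrl (0 of 30, against 0% of all genes) and for EpPT2 against EpPT1 (0 of 30, against 0%). At an unadjusted p under 0.05 there were also 0 members in each comparison, while 3.93%, 12.2% and 0.214% of all genes reached it, in the same order. DESeq2 and limma-voom likewise called 0 members in all 3 comparisons. The adjusted p of the member entries was 0.991 or above in EpPT1 against Ctrl, 0.415 to 0.977 in EpPT2 against Ctrl and 1.00 in EpPT2 against EpPT1, so it is given below for EpPT2 against Ctrl only. The members with the smallest unadjusted p were the second Aldoa entry, Pdhb and Pdha1 in the 3 comparisons.

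The members as a list lay near 0. Their median fitted log2 difference was -0.01 in EpPT1 against Ctrl, where that of all genes tested was -0.02. In EpPT2 against Ctrl the medians were -0.06 for the members and -0.03 for all genes, and in EpPT2 against EpPT1 they were -0.07 and -0.01. Among the 30 entries, 14, 11 and 11 had a difference above 0 in these comparisons, against 48%, 47.9% and 48.3% of all genes. The other 16, 19 and 19 lay below 0, against 52%, 52.1% and 51.7% of all genes. The comparisons against Ctrl share the same 3 Ctrl libraries, so their values stand side by side and are not independent. The median standard error of the fitted log2 differences over all genes was 0.37 in EpPT2 against Ctrl, and 2 such errors correspond to a 1.67-fold change. For a gene with this error, smaller changes were not detectable with 3 libraries a group, and the adjusted threshold could miss larger ones too. Members with a mean of at least 5 CPM had errors of 0.19 to 1.14 in that comparison, with a median of 0.28. Egln2, described further on, differed by 1.23 (SE 0.28) in EpPT2 against Ctrl and had an adjusted p of 0.376 in edgeR's test.

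**Figure D2:**
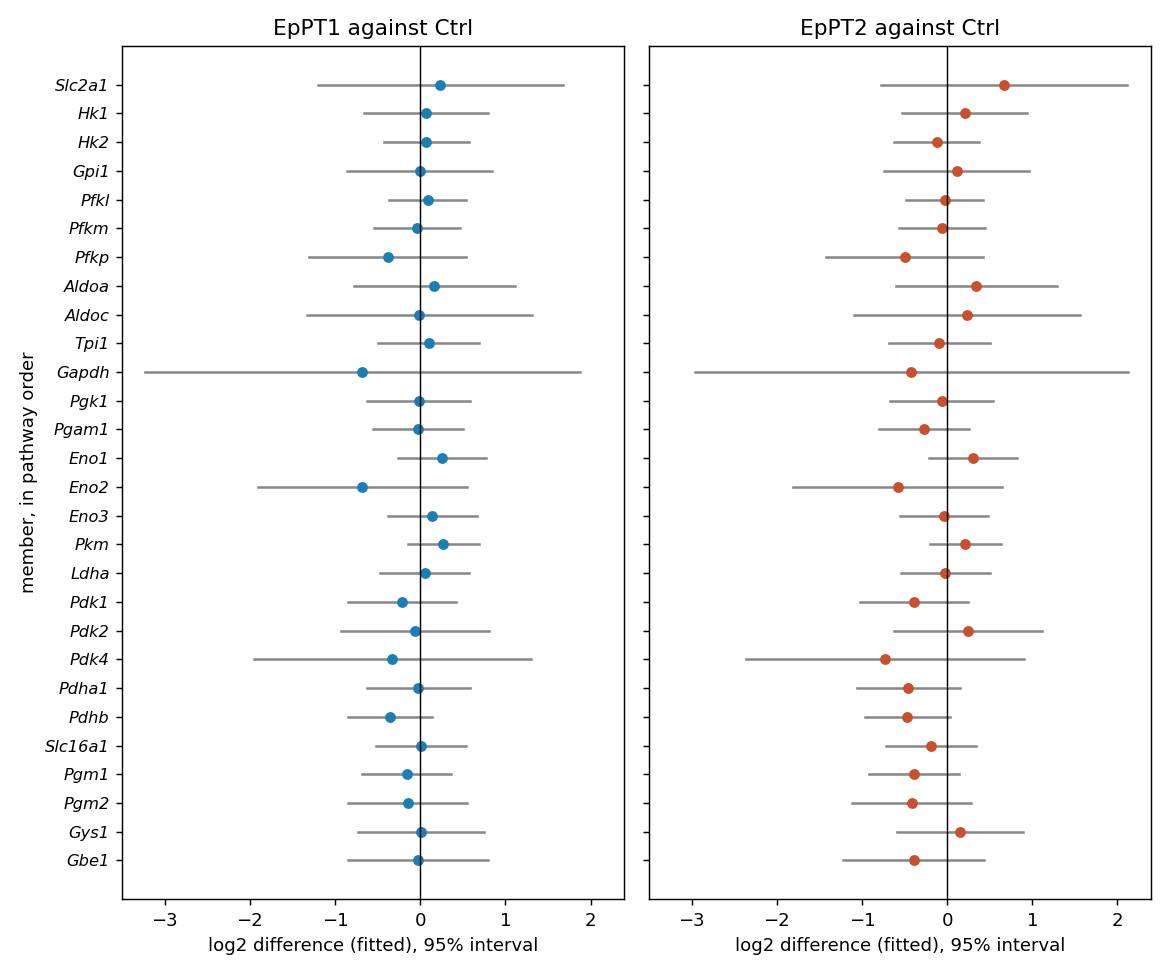
Fitted log2 differences of EpPT1 and EpPT2 against Ctrl for the members with a mean of at least 5 CPM, in pathway order; points are the estimates and lines their 95% intervals. Every interval includes 0, and those of Gapdh, Pdk4, Slc2a1, Aldoc and Eno2 are the widest.

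Of the glucose transporters among the members, Slc2a1 carried nearly all counts. Slc2a1, the ubiquitous glucose transporter GLUT1 (chr4:119108711-119137983 on GRCm38), was at 104, 216 and 411 CPM in the Ctrl libraries. It was at 201, 136 and 525 CPM in EpPT1 and at 137, 513 and 513 CPM in EpPT2. The groups overlapped, and the same 4 libraries with the larger mitochondrial share (411 to 525 CPM) all lay above the other 5 (104 to 216 CPM), with Ctrl, EpPT1 and EpPT2 contributing 1, 1 and 2 of these libraries. The log2 difference was 0.24 (SE 0.65) in EpPT1 against Ctrl and 0.67 (SE 0.65, adjusted p = 0.66) in EpPT2 against Ctrl. Among the libraries with the smaller share, where EpPT2 has 1 library, the EpPT2 difference was -0.21, and the part of the mitochondrial share in the level was not tested. In EpPT2 against EpPT1 the difference ran from 0.09 without EpPT1 2 to 1.20 without EpPT1 3. Slc2a3, the transporter GLUT3 of neurons, had 0 to 20 counts per library, and Slc2a1 made up 99.867% or more of the counts per kb of the pair.

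Both hexokinases, which trap glucose as glucose 6-phosphate, were expressed at like levels per kb. Hk1, the broadly expressed form, was at 118, 262 and 208 CPM in Ctrl, 218, 157 and 243 CPM in EpPT1 and 155, 263 and 262 CPM in EpPT2. Hk2, the inducible form of muscle and many tumours, was at 150, 111 and 168 CPM in Ctrl, 133, 169 and 148 CPM in EpPT1 and 154, 126 and 114 CPM in EpPT2. Hk2 made up 51.9% ± 13.4 (SD, n = 3) of the counts per kb of the pair in Ctrl, 51.3% ± 8.08 in EpPT1 and 45.9% ± 11.1 in EpPT2. The share ran from 37.7% to 64.4% over the Ctrl libraries alone, a wider range than the distance between the groups. The log2 differences against Ctrl were 0.07 (SE 0.33) and 0.21 (SE 0.33, adjusted p = 0.806) for Hk1 in EpPT1 and EpPT2, and 0.07 (SE 0.22) and -0.12 (SE 0.22, adjusted p = 0.834) for Hk2.

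Of the phosphofructokinases, which commit sugar to glycolysis, the liver form Pfkl led in counts per kb. Undivided by length, Pfkp exceeded it in Ctrl 3, with 50.9% of the counts against 43.7% for Pfkl. The Pfkl share of the 3 genes' counts per kb was 57.8% ± 3.06 in Ctrl, 62.9% ± 4.42 in EpPT1 and 62.1% ± 3.19 in EpPT2 (SD, n = 3 each). Pfkl was the steadier gene, at 166, 241 and 220 CPM in Ctrl, 215, 202 and 249 CPM in EpPT1 and 198, 206 and 210 CPM in EpPT2. The platelet form Pfkp varied more, at 94.7, 192 and 256 CPM in Ctrl, 181, 81.6 and 153 CPM in EpPT1 and 81.3, 147 and 156 CPM in EpPT2, with overlapping groups. Its log2 difference was -0.38 (SE 0.41) in EpPT1 and -0.50 (SE 0.41, adjusted p = 0.605) in EpPT2 against Ctrl. The muscle form Pfkm stayed between 26.7 and 40.4 CPM, with log2 differences of -0.04 (SE 0.23) and -0.06 (SE 0.23, adjusted p = 0.922). Pfkl differed from Ctrl by 0.09 (SE 0.20) in EpPT1 and -0.03 (SE 0.20, adjusted p = 0.962) in EpPT2, and once the GC trend was removed these values became -0.21 and -0.52 (adjusted p = 0.844). Pfkp overlaps Pitrm1 (190 to 437 CPM) and Pfkm overlaps Senp1 (63.0 to 144 CPM) on the opposite strand, and since the strand setting of the counting is not given, reads of such pairs may be mixed.

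Aldolase was almost entirely Aldoa. Aldoa (chr7:126795234-126800751) was at 1129, 2541 and 3353 CPM in Ctrl, 2227, 1808 and 3845 CPM in EpPT1 and 1894, 3605 and 3412 CPM in EpPT2. Its levels in the 4 libraries with the larger mitochondrial share (3353 to 3845 CPM) again lay above those in the other 5 (1129 to 2541 CPM). The log2 difference against Ctrl was 0.17 (SE 0.42) in EpPT1 and 0.34 (SE 0.43, adjusted p = 0.74) in EpPT2, and the EpPT2 value became -0.14 once the GC trend was removed. Aldoc, the brain form, was at 8.25 to 30.5 CPM and Aldoa made up 99.2% to 99.6% of the pair per kb. The second Aldoa entry (ENSMUSG00000114515, chr7:126800790-126809108) had 4 to 18 counts per library, with 0.239 to 0.62 CPM in Ctrl and 0.693 to 1.25 CPM in EpPT1. It was the 1 of 30 member entries whose EpPT1 and Ctrl libraries did not overlap, where 5.26% of all genes did so, 2.73% of all genes being higher in EpPT1. It passed the filter on low counts through the treated libraries, so nothing is read from this separation.

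Glucose 6-phosphate isomerase and triose-phosphate isomerase did not separate the groups either. Gpi1 was at 304, 584 and 876 CPM in Ctrl, 524, 444 and 788 CPM in EpPT1 and 449, 722 and 735 CPM in EpPT2. Tpi1 was at 802, 1503 and 909 CPM in Ctrl, 1417, 1058 and 970 CPM in EpPT1 and 1031, 972 and 1010 CPM in EpPT2. The spread was largest within Ctrl for both genes, and the log2 differences lay between -0.09 and 0.11 against Ctrl, with SE 0.38 for Gpi1 and 0.27 for Tpi1.

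Gapdh, the glyceraldehyde 3-phosphate dehydrogenase often used as a reference gene, was the least steady member with a mean of at least 5 CPM. It was at 35.9, 553 and 894 CPM in Ctrl. In EpPT1 it was at 432, 42.6 and 451 CPM, and in EpPT2 at 56.7, 811 and 238 CPM. One library of each group (Ctrl 1, EpPT1 2 and EpPT2 1) stood at 56.7 CPM or below and the other 6 at 238 CPM or above, so that the highest library was 24.9 times the lowest. Of the 10242 genes tested with a mean of at least 5 CPM, 34 (0.332%, Gapdh included) had a ratio as large. The log2 difference against Ctrl was -0.68 (SE 1.15, 95% interval -3.23 to 1.87) in EpPT1 and -0.42 (SE 1.14, interval -2.96 to 2.12, adjusted p = 0.894) in EpPT2.

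Gapdh has many processed pseudogenes, and how the authors' counting shared reads among them is not given. Of the 4598 stretches of 50 bases in its transcripts, 25.1% also occur in transcripts of other genes. The 110 pseudogenes that share at least 1% of these stretches summed to 50.6 to 112 CPM per library. With their counts added to those of Gapdh, the sums were 86.5, 130 and 139 CPM in Ctrl 1, EpPT1 2 and EpPT2 1, and the highest library was 11.4 times the lowest. Reads left uncounted because they match several genes would be missing from this sum. It therefore cannot show the part of shared sequence in the spread.

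The other enzymes of the pay-off phase were far steadier. Pgk1 was at 902, 1717 and 1343 CPM in Ctrl, 1527, 1030 and 1359 CPM in EpPT1 and 1030, 1347 and 1417 CPM in EpPT2. Pgam1 was at 437, 748 and 546 CPM in Ctrl, 667, 541 and 490 CPM in EpPT1 and 492, 482 and 459 CPM in EpPT2. The EpPT2 range of Pgam1 was narrow and lay inside the Ctrl range, with a log2 difference of -0.27 (SE 0.24, adjusted p = 0.62) against Ctrl and -0.25 (SE 0.24) against EpPT1. Pgk1 differed from Ctrl by -0.02 in EpPT1 and -0.06 in EpPT2 (SE 0.27 for both). Both genes share sequence with copies, 53.9% of 50-base stretches for Pgk1 and 36.2% for Pgam1. The counts of these copies summed to 2.55 to 6.40 CPM for Pgk1 and 3.23 to 7.24 CPM for Pgam1.

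Pyruvate kinase had the smallest p of the members above 0 in EpPT1 against Ctrl with a mean of at least 5 CPM, and did not pass the test. Pkm (chr9:59656368-59679375) was at 1297, 1699 and 1376 CPM in Ctrl, 1660, 1842 and 1772 CPM in EpPT1 and 1788, 1632 and 1644 CPM in EpPT2. Only Ctrl 2 of the Ctrl libraries reached the range of the treated ones. The log2 difference was 0.27 (SE 0.19, 95% interval -0.15 to 0.69) in EpPT1 and 0.21 (SE 0.19, interval -0.20 to 0.63, adjusted p = 0.627) in EpPT2, and the EpPT2 value turned to -0.10 once the GC trend was removed. The table counts genes and not transcripts, so the M1 and M2 forms of pyruvate kinase were not told apart here. Pkm overlaps AC160637.1 (34.3 to 215 CPM) on the same strand. Of the 50-base stretches of Pkm, 25.8% occur in transcripts of other genes, and 12.1% in those of AC160637.1. The part of either in the level of Pkm was not tested.

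Eno1, the enolase of most tissues, and Eno3, that of muscle, carried nearly all enolase counts. Eno1 (chr4:150236721-150248879) was at 1042, 1314 and 871 CPM in Ctrl, 1194, 1498 and 1174 CPM in EpPT1 and 1606, 1148 and 1228 CPM in EpPT2. Eno3 (chr11:70657202-70662513) was at 296, 354 and 240 CPM in Ctrl, 325, 378 and 281 CPM in EpPT1 and 356, 266 and 247 CPM in EpPT2. The groups overlapped for each gene, and the log2 differences against Ctrl were 0.26 (SE 0.23) and 0.30 (SE 0.23, adjusted p = 0.575) for Eno1 in EpPT1 and EpPT2. For Eno3 they were 0.14 (SE 0.23) and -0.04 (SE 0.23, adjusted p = 0.959), the EpPT1 value turning to -0.04 once the GC trend was removed. Beside Eno3, the 7 skeletal muscle markers summed to 4.16 to 12.6 CPM, mostly Des, with Ckm at 0.15 CPM or below and Myh4 at 0.

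Within each library, the division between the enolases was tighter than the levels. In the Ctrl libraries Eno1 made up 53.1%, 54.4% and 53.3% of the enolase counts per kb. The EpPT1 libraries had 54.3%, 56.1% and 57.2%, and the EpPT2 libraries 59.2%, 58.1% and 61.4%. All 3 EpPT2 libraries lay above the other 6. This share was singled out after its values were seen and has no test. It also followed the GC slope of the libraries, being 54.4% or below in the 4 libraries with a negative slope and 56.1% or above in the other 5, although the transcripts of both genes have a GC content of 54.7%. Of the 50-base stretches of Eno1, 26% occur in other genes, while Eno3 shares none, and the part of either in the shift was not tested. Neuronal Eno2 was low, at 4.34, 5.26 and 16.5 CPM in Ctrl, 2.83, 4.93 and 8.53 CPM in EpPT1 and 5.3, 6.4 and 5.72 CPM in EpPT2. Its log2 difference in EpPT1 was -0.68 (SE 0.55) and turned to 0.17 without Ctrl 3.

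**Figure D3:**
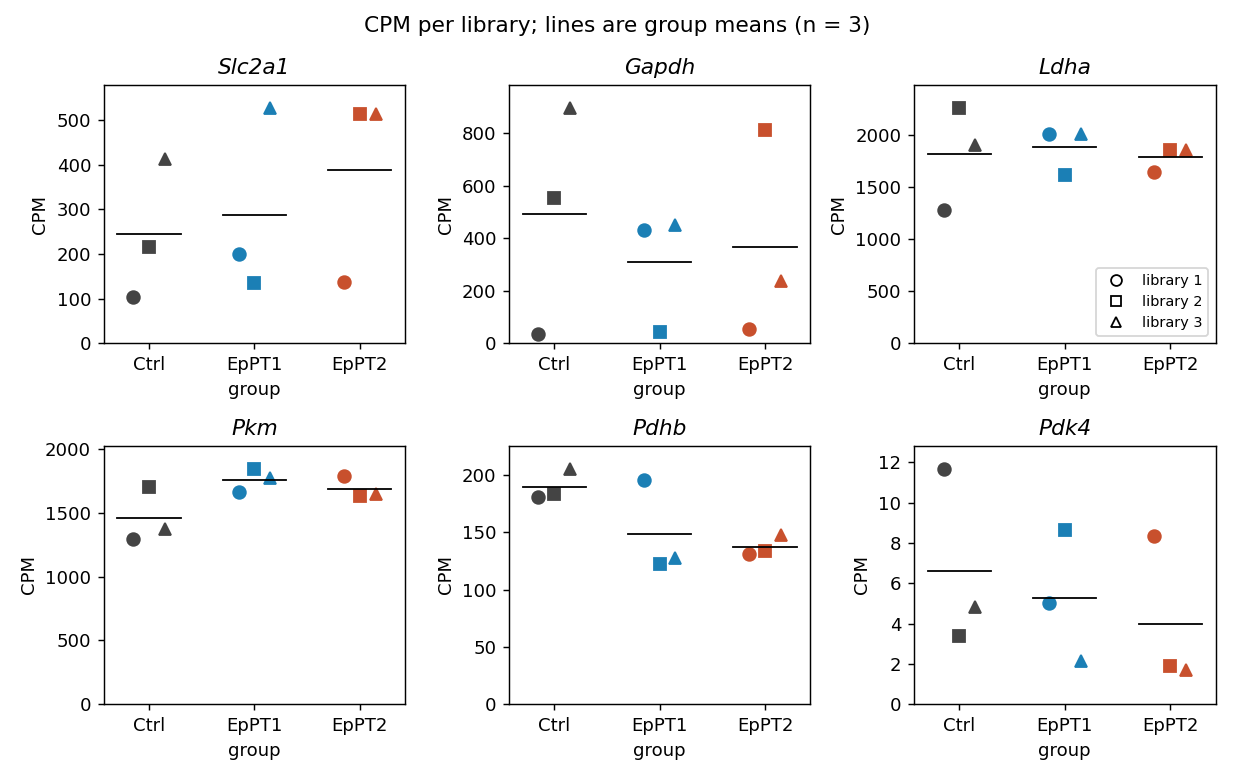
CPM of Slc2a1, Gapdh, Ldha, Pkm, Pdhb and Pdk4 in each library, by group; lines are group means (n = 3) and shapes give the library number. Gapdh splits within every group, from 35.9 to 894 CPM, whereas Ldha and Pkm vary less, and the 3 EpPT2 libraries of Pdhb (131 to 148 CPM) lie below the 3 Ctrl libraries (181 to 205 CPM).

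Among the lactate members, Ldha and Slc16a1 each carried nearly all counts of their pair. Ldha, which reduces pyruvate to lactate, was at 1286, 2257 and 1905 CPM in Ctrl, 2014, 1619 and 2014 CPM in EpPT1 and 1646, 1860 and 1863 CPM in EpPT2. The treated libraries all lay inside the Ctrl range, and the log2 difference was 0.05 (SE 0.23, 95% interval -0.47 to 0.57) in EpPT1 and -0.02 (SE 0.23, interval -0.54 to 0.50, adjusted p = 0.977) in EpPT2. Ldhb, the heart form, had 0 counts in all 9 libraries, where a count of 0 allows up to 3 counts in a library. Slc16a1, the lactate carrier MCT1, was at 313, 203 and 211 CPM in Ctrl, 273, 262 and 197 CPM in EpPT1 and 240, 188 and 213 CPM in EpPT2. It differed from Ctrl by 0.01 (SE 0.24) in EpPT1 and -0.18 (SE 0.24, adjusted p = 0.751) in EpPT2. The carrier MCT4, Slc16a3, which exports lactate from strongly glycolytic cells, had 2, 4 and 17 counts in the Ctrl libraries, 1, 5 and 23 counts in those of EpPT1 and 12, 23 and 37 counts in those of EpPT2. These counts were higher in the 4 libraries with the larger mitochondrial share, and the log2 difference in EpPT2 against Ctrl was 1.58 (SE 1.10, adjusted p = 0.538). Without Ctrl 3 it was 3.09 (adjusted p = 0.33), and the difference of 1.34 (SE 1.08) in EpPT2 against EpPT1 was 3.18 without EpPT1 3 (adjusted p = 0.696).

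At the entry of pyruvate into the mitochondria, all 5 tested members had a fitted difference below 0 in EpPT1 against Ctrl and 4 of 5 in EpPT2 against Ctrl, none of them past the test. Their median log2 difference was -0.21 in EpPT1 and -0.45 in EpPT2, against -0.02 and -0.03 for all genes. In the other parts of the pathway the medians ran from -0.08 (glycogen) to 0.24 (glucose uptake, 1 entry) in EpPT1. In EpPT2 they ran from -0.39 to 0.67, in the same parts. The 5 include both the enzyme and kinases that hold it back, so a shared direction has no single meaning. Transcript GC content was 46.2% to 47.2% in Pdha1, Pdhb, Pdk1 and Pdk4. It was 56.9% in Pdk2, the 1 above 0 in EpPT2. Pdhb, the beta subunit of the E1 enzyme of pyruvate dehydrogenase (chr14:8165996-8173025), was at 181, 184 and 205 CPM in Ctrl. It was at 196, 122 and 127 CPM in EpPT1 and at 131, 133 and 148 CPM in EpPT2. EpPT1 1 was within the Ctrl range, while the other 5 treated libraries were below it. These 5 were also the libraries with a positive GC slope. The transcripts of Pdhb have a GC content of 46.3%, and the part of that slope in its level was not tested. The log2 difference was -0.36 (SE 0.22, 95% interval -0.85 to 0.14) in EpPT1 and -0.47 (SE 0.22, interval -0.96 to 0.03, adjusted p = 0.415) in EpPT2. Without EpPT1 1 the EpPT1 difference was -0.61 with an adjusted p of 0.206. The EpPT1 and EpPT2 differences from Ctrl stayed below 0 once the GC trend was removed. For Pdhb the 4 libraries with the larger mitochondrial share overlapped with the other 5.

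Pdha1, the alpha subunit of the same enzyme (chrX:160122209-160138413), was at 148, 149 and 106 CPM in Ctrl, 169, 137 and 91.8 CPM in EpPT1 and 123, 87.2 and 84.3 CPM in EpPT2. The log2 difference was -0.02 (SE 0.27) in EpPT1, -0.45 (SE 0.27, adjusted p = 0.492) in EpPT2 and -0.43 (SE 0.27) between EpPT2 and EpPT1. Here the 4 libraries with the larger mitochondrial share (84.3 to 106 CPM) were all below the other 5 (123 to 169 CPM), 2 of them in EpPT2, and the part of that share was not tested. The differences of EpPT2 from Ctrl and from EpPT1 kept their sign with the share as a covariate.

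Among the kinases that switch pyruvate dehydrogenase off, Pdk1 led with 72.4% to 76.3% of the 4 genes' counts per kb as group means. Pdk1, a target of hypoxia-inducible factors, was at 84.7, 130 and 128 CPM in Ctrl, 117, 68.6 and 110 CPM in EpPT1 and 64, 102 and 94.7 CPM in EpPT2. It differed from Ctrl by -0.21 (SE 0.29) in EpPT1 and -0.39 (SE 0.29, adjusted p = 0.555) in EpPT2. Pdk4, the form induced by fasting and fatty acids, was at 11.7, 3.41 and 4.81 CPM in Ctrl, 5.02, 8.66 and 2.15 CPM in EpPT1 and 8.35, 1.91 and 1.69 CPM in EpPT2. Ctrl 1, EpPT1 2 and EpPT2 1 were its 3 highest libraries, with 21%, 17.8% and 18.5% of the kinase counts per kb, against 3.04% to 7.91% in the other 6. Its log2 differences were -0.33 (SE 0.73) and -0.73 (SE 0.74, adjusted p = 0.673), and without EpPT2 1 the EpPT2 value was -1.88 with an adjusted p of 0.348. Pdk2 was at 5.08 to 11.7 CPM, with a log2 difference of 0.30 (SE 0.39) between EpPT2 and EpPT1, and Pdk3 had 0 counts in every library.

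**Figure D4:**
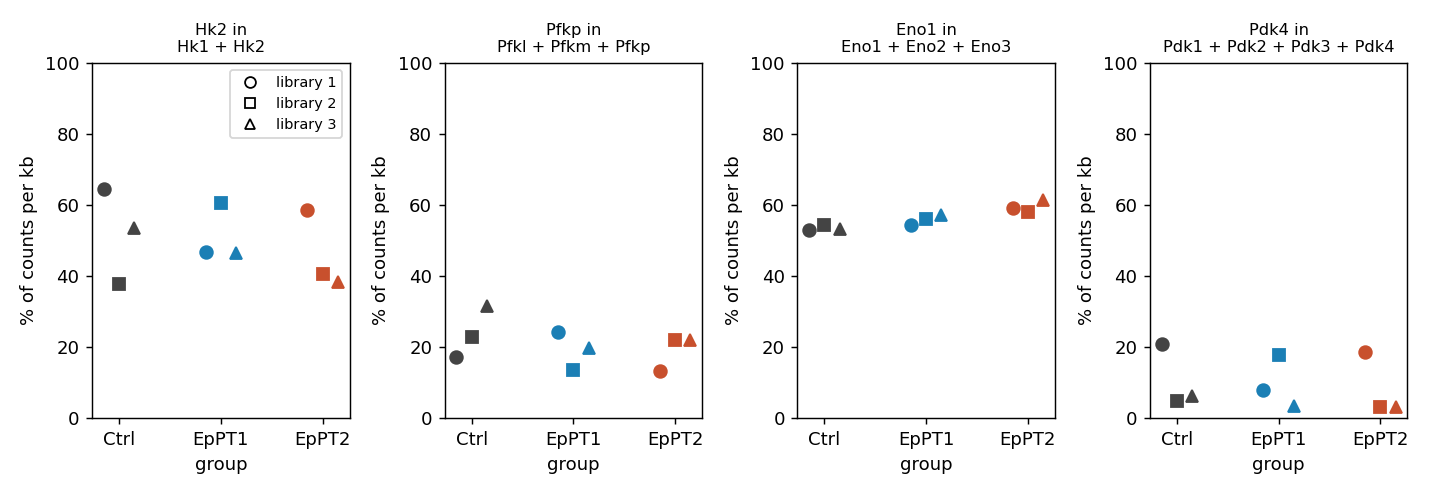
Share of 1 isozyme in its family's counts per kb, in percent, for Hk2, Pfkp, Eno1 and Pdk4 in each library by group; shapes give the library number. The Eno1 share is highest in the 3 EpPT2 libraries (58.1% to 61.4%), whereas the Hk2, Pfkp and Pdk4 shares vary as widely within groups as between them.

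Of the glycogen members, those of storage were expressed, while the phosphorylase Pygl was at or near 0. The symbols Pgm1 and Pgm2 of the table are exchanged in current annotation: its Pgm1 (ENSMUSG00000029171) is named Pgm2 in RefSeq, and its Pgm2 (ENSMUSG00000025791) is named Pgm1. The table's Pgm1 was at 27.8, 35.8 and 39.2 CPM in Ctrl, 38.1, 27.5 and 26.3 CPM in EpPT1 and 27, 27.8 and 23.9 CPM in EpPT2. The table's Pgm2, the main phosphoglucomutase, was at 75.8, 140 and 137 CPM in Ctrl, 134, 69.7 and 115 CPM in EpPT1 and 70.4, 104 and 89.9 CPM in EpPT2. In EpPT2 against Ctrl the log2 difference was -0.38 (SE 0.24, adjusted p = 0.501) for the table's Pgm1 and -0.41 (SE 0.31, adjusted p = 0.57) for its Pgm2. With Pdhb, the table's Pgm1 was 1 of 2 of the 30 member entries whose EpPT2 and Ctrl libraries did not overlap, both lower in EpPT2. That share lies below the 23.2% of all genes without overlap in this comparison, 10.9% of all genes being lower.

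Glycogen synthase Gys1 was at 33.1, 75.6 and 47.1 CPM in Ctrl, 60.5, 41.2 and 55.4 CPM in EpPT1 and 39.9, 63.4 and 70 CPM in EpPT2, with a log2 difference of 0.01 and 0.15 against Ctrl (SE 0.33 for both). The branching enzyme Gbe1 was at 13, 12.9 and 6.08 CPM in Ctrl, 13.3, 11.4 and 6.86 CPM in EpPT1 and 9.32, 7.98 and 7.13 CPM in EpPT2. Gbe1 was lower in all 4 libraries with the larger mitochondrial share, and its log2 difference in EpPT2 against EpPT1 was -0.37 (SE 0.37). Pygl, the liver glycogen phosphorylase that releases glucose units, had 0 counts except for 3 in EpPT2 1 and 1 in EpPT2 3. The brain form Pygb, no member and named after its values were seen, was at 59.9 to 182 CPM. Gys1 overlaps Ruvbl2 (62.7 to 114 CPM) on the opposite strand, which limits its values in the same way as those of Pfkp.

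Between EpPT2 and EpPT1, 0 of 30 member entries separated the groups, against 2.45% of all genes. The members with the smallest p above 0 were Pdk2, Slc2a1 (0.43, SE 0.65), Gys1 (0.14, SE 0.33) and Hk1 (0.14, SE 0.33). The values for Slc2a1 and Hk1 turned to -0.01 when the mitochondrial share entered the fit as a covariate. Below 0, Pdha1, Pgam1 and Gbe1 were followed by the table's Pgm1 (-0.22, SE 0.24).

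For many members, the 3 lowest libraries came 1 from each group. Ctrl 1, EpPT1 2 and EpPT2 1, which come 1 from each group, were the 3 lowest libraries for 13 of the 30 member entries (43.3%), against 8.92% of all genes tested. These were Slc2a1, Hk1, Gpi1, Pfkl, Pfkp, Aldoa, Aldoc, Gapdh, Pgk1, Ldha, Pdk1, the table's Pgm2 and Gys1. The next most frequent set of 3 lowest libraries held 3 member entries. The same 3 libraries had the 3 lowest mitochondrial shares, at 2.86%, 2.74% and 3.38%, and totals of 15867162, 16979227 and 15809059 counts. This set of libraries was noticed in these values, and the part of the mitochondrial share in it was not tested. In the 4 libraries with the larger share, 7 of 30 entries (23.3%) were above all other libraries, against 16.5% of all genes. These were Slc2a1, Gpi1, Aldoa, Aldoc, Eno2, Pdk2 and Slc16a3. Another 3 (10%: Eno3, Pdha1 and Gbe1) were below all others, against 18% of all genes. Over the 28 member entries with a mean of at least 5 CPM, the highest library was a median 2.00 times the lowest, against 2.19 over the 10242 genes at that level.

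**Figure D5:**
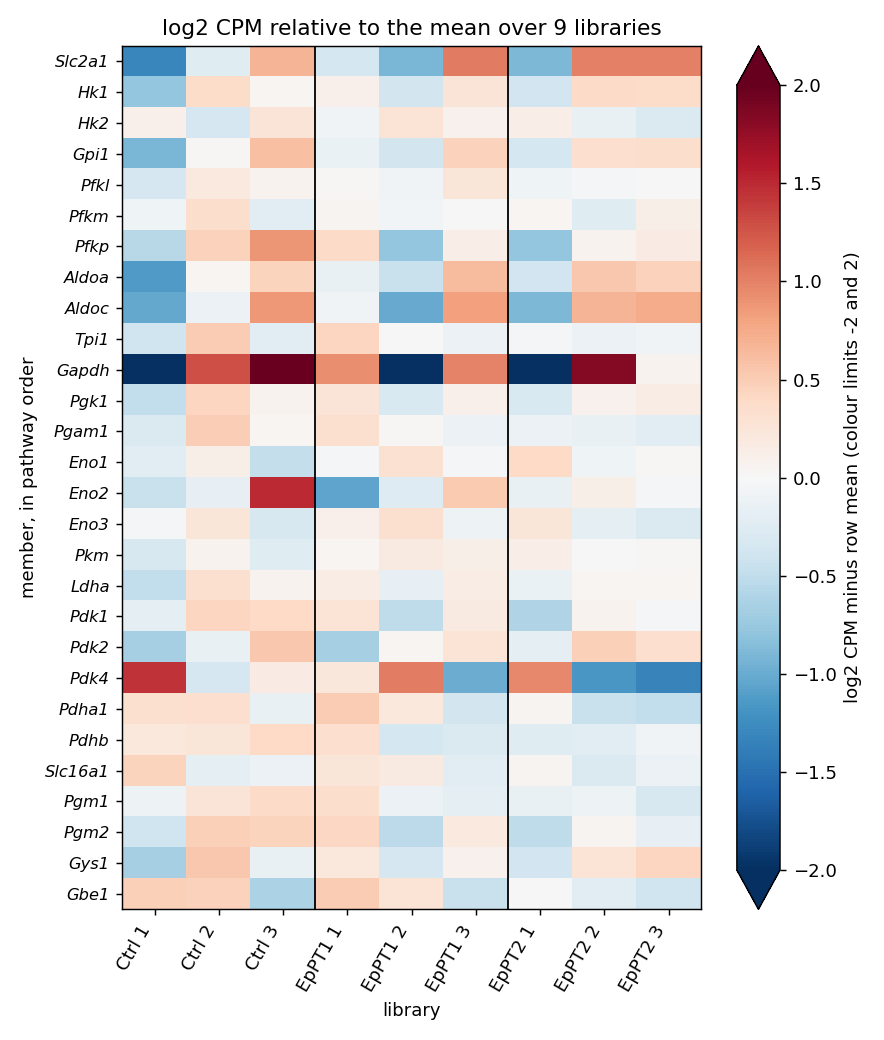
log2 CPM of each member minus its mean over the 9 libraries, for members with a mean of at least 5 CPM in pathway order; red is above the mean, blue below, with colours limited at -2 and 2, and vertical lines part the groups. Ctrl 1, EpPT1 2 and EpPT2 1 are blue for Slc2a1, Gpi1, Pfkp, Aldoa, Aldoc, Gapdh and Pgk1, and red for Pdk4.

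Genes around the pathway, in 9 lists kept apart from the members, also gave 0 genes past edgeR's test in each comparison. Of the 91 genes of these lists that were tested, 4 had an unadjusted p under 0.05 in EpPT1 against Ctrl, against 3.93% of all genes. They were Pgls, Pgd, Egln2 and the glycogen phosphatase subunit Ppp1r3e, all higher. In EpPT2 against Ctrl there were 11 of 91, against 12.2% of all genes, and in EpPT2 against EpPT1 there were 0. The counts over these lists were thus near the shares of all genes. Of 13 tested glycolytic isozymes and enzymes outside the members, 9 were above 0 and 4 below in EpPT2 against Ctrl, with the smallest p among those with a mean of at least 5 CPM for the intracellular transporter Slc2a8 (log2 1.32, SE 0.71, adjusted p = 0.453), and 0 had an unadjusted p under 0.05. Of 5 enzymes that set fructose 2,6-bisphosphate, an activator of phosphofructokinase, Pfkfb3 was at 31.9 to 135 CPM and differed by 0.41 (SE 0.54, adjusted p = 0.756). In the 4 libraries with the larger mitochondrial share, Slc2a8 and Pfkfb3 lay above all others. Their lists held 6 of 13 and 3 of 5 such genes, against 16.5% of all genes. Another 3 of 13 and 1 of 5 lay below all others, against 18%, and the part of that share was not tested. Of 4 tested genes of gluconeogenesis all were above 0, with the phosphatase G6pc3 at 1.00 (SE 0.39, adjusted p = 0.38). Basigin (Bsg), the chaperone of the lactate carriers, was at 872 to 4112 CPM, above all others in the 4 libraries with the larger mitochondrial share, and differed by 0.61 (SE 0.65, adjusted p = 0.694). The gene of that list with an unadjusted p under 0.05 was the carrier Slc16a8, at 3.89 CPM or below and named after its values were seen.

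The pentose phosphate pathway, the other outlet of glucose 6-phosphate, had 3 of 8 genes at an unadjusted p under 0.05 in EpPT2 against Ctrl, against 12.2% of all genes. Pgls, which opens the lactone ring, was at 32.8, 39.1 and 23.3 CPM in Ctrl, 29.6, 72.6 and 61.9 CPM in EpPT1 and 76, 61.8 and 58.3 CPM in EpPT2. Its log2 difference in EpPT2 against Ctrl was 1.04 (SE 0.34, adjusted p = 0.376). Pgd, the second NADPH-yielding dehydrogenase, differed by 0.49 (SE 0.20, adjusted p = 0.382). Rpia, an isomerase of the pathway named after its values were seen, was the third, with -0.52 (SE 0.23, adjusted p = 0.405). None passed the adjusted threshold, and for Pgls and Pgd the EpPT2 libraries lay above the Ctrl libraries. For both genes the libraries with a positive GC slope lay above all others, EpPT1 1 included, and the part of that slope was not tested.

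Of 8 partners of pyruvate dehydrogenase, 7 were below 0 in EpPT2 against Ctrl with a median of -0.52, among them the carrier subunit Mpc1 (-0.81, SE 0.34, adjusted p = 0.388) and the shared E3 enzyme Dld (-0.61, SE 0.32, adjusted p = 0.449). In 6 of these 8 genes the 4 libraries with the larger mitochondrial share lay below all others, against 18% of all genes. Of 16 genes of the tricarboxylic acid cycle, 5 were above 0 and 11 below, with Idh3g, a subunit of isocitrate dehydrogenase, at -0.28 (SE 0.20, adjusted p = 0.543). In 9 of these 16 the 4 libraries were again below all others, against the same 18%, and the part of the mitochondrial share in these lists was not tested.

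Of 21 tested other glycogen genes, 2 had an unadjusted p under 0.05 in EpPT2 against Ctrl, both lower, against 12.2% of all genes. They were Gsk3b, a kinase that inhibits glycogen synthase (-0.60, SE 0.22, adjusted p = 0.376), and Ugp2, which makes the UDP-glucose for glycogen (-0.62, SE 0.26, adjusted p = 0.388). Of 14 regulators of glycolytic genes, 3 had such a p, against the same 12.2%. The prolyl hydroxylase Egln2, an oxygen sensor that marks hypoxia-inducible factors, was at 26.4, 30.6 and 29 CPM in Ctrl, 36.2, 51.6 and 74.5 CPM in EpPT1 and 54.3, 73 and 75.1 CPM in EpPT2. The Ctrl libraries lay below all treated ones, with a log2 difference of 0.92 (SE 0.28, adjusted p = 0.991) in EpPT1 and 1.23 (SE 0.28, adjusted p = 0.376) in EpPT2. EpPT1 1, the treated library with a negative GC slope, was the lowest treated one, and the part of that slope was not tested. Prkaa1, a catalytic subunit of the energy sensor AMPK, differed by -0.78 (SE 0.25, adjusted p = 0.376) in EpPT2. The third was Mlxipl, the glucose-responsive factor ChREBP, named after its values were seen, with 1.34 (SE 0.47, adjusted p = 0.376).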

How the data were processed

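The values used are the raw gene counts that the authors deposited in 1 table, whose 9 columns were matched to the HC11 libraries by title. Bowtie 0.12.2 and build mm8 are named in the submitters' processing notes, but the start and end in the table equal those of GENCODE mouse release M21 (GRCm38) for 53585 of 54495 gene IDs found there (98.3%), so gene positions are given on GRCm38. No source used here names the counter or its strand setting.

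In R 4.3.3, edgeR 4.0.16 (TMM scaling, filterByExpr, 1 fit of 9 libraries, no block, 6 residual degrees of freedom, quasi-likelihood test, two-sided) was run on all genes, and p-values were adjusted by Benjamini-Hochberg over the 14471 genes tested, with a threshold of 0.05. CPM values use TMM-scaled library sizes, and CPM per kb divides by the length column of the authors' table. Intervals come from the fitted standard error. Shared sequence was counted as 50-base stretches of GENCODE M21 transcripts. Counting floors of 3 counts cover counting error only, since no molecular identifiers are recorded.

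Described with values were, per comparison, up to 4 members in each direction with the smallest p and a mean of at least 5 CPM, a set of members chosen for their role, and at most 2 genes of each other list by the same p and level. A gene met by this rule is not reported here. The members and lists were chosen with earlier results of these data known. The fit was tested on simulated data. Alternatives were DESeq2 size factors, leaving out the filter, requiring 5 CPM in 3 libraries, DESeq2 1.42.0, limma-voom (limma 3.58.1), a replicate block, only the libraries compared, the mitochondrial share as a covariate or a limit of 5%, removal of a GC spline per library, and leaving out each library.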

Additional observations from a re-analysis of the deposited data

How the results depend on the processing

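No member passed the test under any of the 20 alternatives, and the lowest adjusted p of a member over them was 0.206 and 0.139 for EpPT1 and EpPT2 against Ctrl and 0.696 for EpPT2 against EpPT1. The median difference of the members changed by less than its spread between libraries (SD 0.212 on the log2 scale), also where its sign changed, and ran from -0.19 to 0.14, from -0.17 to 0.11 and from -0.20 to -0.01 in this order. At an unadjusted p under 0.05 the alternatives gave 0 to 1, 0 to 4 and 0 to 2 members; the 4, found once the mitochondrial share entered as a covariate, were Pdhb, Pfkp, Pdk1 and Slc16a3. Over all genes, 0 passed in each comparison, while without a filter on low counts 32, 268 and 2 genes passed, and DESeq2 called 1 gene in EpPT1 against Ctrl and 61 in EpPT2 against Ctrl. Leaving out 1 library gave 0 to 2 genes in EpPT2 against Ctrl, the 2 coming without EpPT1 replicate 1.

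Of 480 values for the named members, 459 kept their sign and 21 reversed, and 15 of 24 named results never reversed. With the GC trend removed, Eno3 and Pfkl in EpPT1 against Ctrl became -0.038 and -0.21, and Pkm and Aldoa in EpPT2 against Ctrl -0.10 and -0.14. With the GC trend removed and a replicate block they were -0.044, -0.22, -0.098 and -0.097, and Gys1 in EpPT2 against EpPT1 was -0.035. Where the mitochondrial share was a covariate, Slc2a1 and Hk1 in EpPT2 against EpPT1 became -0.00656 and -0.012. With the libraries of low share only, where EpPT2 has 1 library and is assumed to vary like the others, Slc2a1 in EpPT2 against Ctrl was -0.21, and Slc2a1, Gys1 and Hk1 in EpPT2 against EpPT1 were -0.29, -0.34 and -0.27. Leaving out 1 library at a time, Pfkl ran from -0.053 to 0.20 and Eno2 from -1.16 to 0.17 in EpPT1 against Ctrl, and Gys1 from -0.019 to 0.34 and Hk1 from -0.024 to 0.34 in EpPT2 against EpPT1. The cause of these reversals was not tested.

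Whether the replicate numbers pair the libraries was not settled by the values. The deviations of same-numbered libraries correlated from 0.15 to 0.73 for number 1, from -0.64 to 0.06 for number 2 and from 0.63 to 0.73 for number 3. Those of differently numbered libraries ran from -0.77 to 0.75. With a replicate block 0 members passed, their medians were 0.08, -0.05 and -0.09, and 947, 3056 and 173 genes had an unadjusted p under 0.05, against 568, 1763 and 31 without it. Isozyme shares depended on the division by length: undivided, Eno1 made up 77.8%, 79.5% and 81.8% in Ctrl, EpPT1 and EpPT2, in the same order. Depth limits Slc16a3, Pdk4, Eno2 and the second Aldoa entry, with few counts a library, while for the abundant members the spread between libraries sets the error.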
